A study of Mus musculus with 60 samples.

Results

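The genes described here are 10 members of the pathway by which hepatocytes make fatty acids and store them as triglyceride: Srebf1, Thrsp, Acly, Me1, Acaca, Fasn, Elovl6, Scd1, Gpam and Dgat2. They were found by gene symbol in the annotation of the array, as 10 of 14442 genes with a probe, which gave 12 of 21997 probes, 3 of them for Acaca and 1 for each other gene. Of these, 11 probes of 9 genes had enough values to be tested, among 14580 probes tested in all. The Thrsp probe had values on both dyes in 23 of 30 replicates and is described without a test.

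The samples were primary hepatocytes of adult male mice aged 9 to 10 weeks. KO cells came from mice of strain 129SV/C57BL6 with the genotype Alb-Cre +/-; Met Fl/Fl, in which the albumin promoter drives Cre in hepatocytes and Cre removes part of Met, the receptor of hepatocyte growth factor (HGF). WT cells came from Cre control mice of strain C57BL, so genotype and strain changed together and cannot be told apart. The titles of all WT arrays name Cre, but only 6 WT arrays give the Cre transgene in the genotype label, as heterozygous. All cells were plated with 10% FBS for 4 h and then kept without serum in a medium with ITS until the next day. RNA was taken from untreated cells (0 h) and after 0.5, 2, 12 and 24 h with 50 ng/ml recombinant human HGF. Each of the 10 groups had 3 replicates, which the labels describe as cultures of 3 individual mice. The effect of HGF cannot be told apart from that of hours in culture, because untreated cells of later times were not analysed here.

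Fatty acid synthesis begins when Acly, ATP citrate lyase, makes cytosolic acetyl-CoA from citrate. Acaca, acetyl-CoA carboxylase, turns it into malonyl-CoA, and Fasn, fatty acid synthase, builds palmitate from both with NADPH that Me1, malic enzyme, helps to supply. Elovl6 lengthens palmitate and Scd1 puts a double bond into the product. Gpam, the mitochondrial glycerol-3-phosphate acyltransferase, joins the first fatty acid to the glycerol backbone, and Dgat2 adds the last one to complete triglyceride. In liver the pathway is known to follow feeding and insulin, largely through SREBP-1c, a product of Srebf1, and Thrsp is a small protein whose level follows lipogenesis.

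Fasn and Gpam are the 2 members that differed between KO and WT at 0.5 h and again at 12 h, and their promoters are shown for that reason. They are RefSeq sequences of build GRCm38.p6, from 250 bases before to 50 bases after the start site, on the minus strand of chr11:120824498-120824797 for Fasn and of chr19:55127189-55127488 for the first of 2 listed starts of Gpam. Capitals mark the letters CCAAT on either strand, ATTGG being the same letters read on the other strand.
Fasn: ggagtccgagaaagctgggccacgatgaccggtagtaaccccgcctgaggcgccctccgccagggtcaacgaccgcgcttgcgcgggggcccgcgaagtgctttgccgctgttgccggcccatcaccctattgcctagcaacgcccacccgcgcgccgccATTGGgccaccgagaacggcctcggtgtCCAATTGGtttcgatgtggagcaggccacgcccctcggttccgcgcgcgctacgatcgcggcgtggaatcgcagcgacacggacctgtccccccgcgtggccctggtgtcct
Gpam start 1: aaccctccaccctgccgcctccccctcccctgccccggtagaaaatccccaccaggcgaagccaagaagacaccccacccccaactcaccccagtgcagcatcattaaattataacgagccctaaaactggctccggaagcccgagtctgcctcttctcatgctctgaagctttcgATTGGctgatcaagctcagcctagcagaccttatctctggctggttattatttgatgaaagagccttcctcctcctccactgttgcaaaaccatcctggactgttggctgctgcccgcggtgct
The capitals lie at -90, -62 and -59 from the start site in Fasn, where the last 2 overlap, and at -74 in Gpam. Among the 12 windows listed for 8 members, 7 windows of 6 members held CCAAT, against 37.4% of 32851 promoters of the same length. The GC box GGGCGG was in 5 windows of 4 members, against 35.7% of promoters. The core of the sterol regulatory element, TCACNCCAC, and the E-box CACGTG, searched on both strands, were in none of the 12 windows. They were in 1.24% and 7.15% of all promoters. These matches describe letters in a window and are no evidence that a factor binds there. Scd1 and Dgat2 are named only.

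Each value is a log2 ratio of a sample to a pool of WT hepatocyte RNA, averaged over 2 arrays with exchanged dyes. A level can be compared between groups for 1 probe, but not between genes. Levels are given as mean ± SD of 3 replicates unless another n is stated. Differences are given as log2 difference ± standard error from limma, with a Benjamini-Hochberg adjusted p over 14580 probes, and a probe passed at an adjusted p under 0.05. In bulk RNA, fewer cells of a type and less RNA per cell cannot be told apart. The number of arrays limits the precision.

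Several facts of the series touch these values. Arrays held values for 17356 to 21511 probes. Met was read by 1 tested probe, whose place relative to the deleted part of the gene is not known, so it is no check of the labels. Its group means lay between -0.09 and 0.45, and it did not pass between KO and WT at any of the 5 times (0 of 5 in limma, -0.03 to 0.30, lowest adjusted p = 0.413). The array numbers in the labels fall into 4 sets. Set D holds the 0.5 h and 2 h groups, apart from KO 2 h replicate 3 in set A. Set C holds the 12 h groups, and the untreated and 24 h groups are spread over A, B and C. The 6 replicates with an array of set A or B are WT 0 h replicate 3, WT 24 h replicates 2 and 3, and replicate 3 of KO at 0, 2 and 24 h. The Cy5 array of WT 0 h replicate 3 correlated below -0.3 with 19 other arrays of its dye, so its direction is unsettled and counts against untreated WT are also given with its sign turned. In that replicate 8 of the 11 member probes had the same sign on both dyes. Groups differed in residual SD, from 0.17 in WT at 2 h to 0.43 in KO at 24 h. A second count, with each group weighted by its own spread, is given for that reason. Hepatocyte markers were read by 14 genes, whose mean log2 ratio was between -0.20 and -0.06 in both genotypes up to 2 h. It was -0.77 in WT and -0.64 in KO at 12 h, and -1.18 and -0.87 at 24 h.

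Which sample is the numerator of the deposited ratios is not stated. Over all probes, the 2 arrays of a replicate correlated below 0 in 23 of 30 replicates (r from -0.677 to 0.186), so the dyes do not read alike over the array as a whole, and this bears on every averaged value. For the members the group means on Cy5 and on Cy3 arrays correlated above 0 over the 10 groups (r = 0.96 for Scd1, 0.91 for Dgat2, 0.87 for Fasn and 0.76 for Gpam, as a description over groups that share the reference). Over the other tested probes r was between 0.28 for Srebf1 and 0.89 for Acaca probe 2. That the ratios run in the same direction on both dyes was inferred from these correlations, and is least supported for Srebf1. The correlations cannot tell sample over reference from reference over sample. Sample over reference was therefore assumed, and the sign of every value rests on it.

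**Figure D1:**
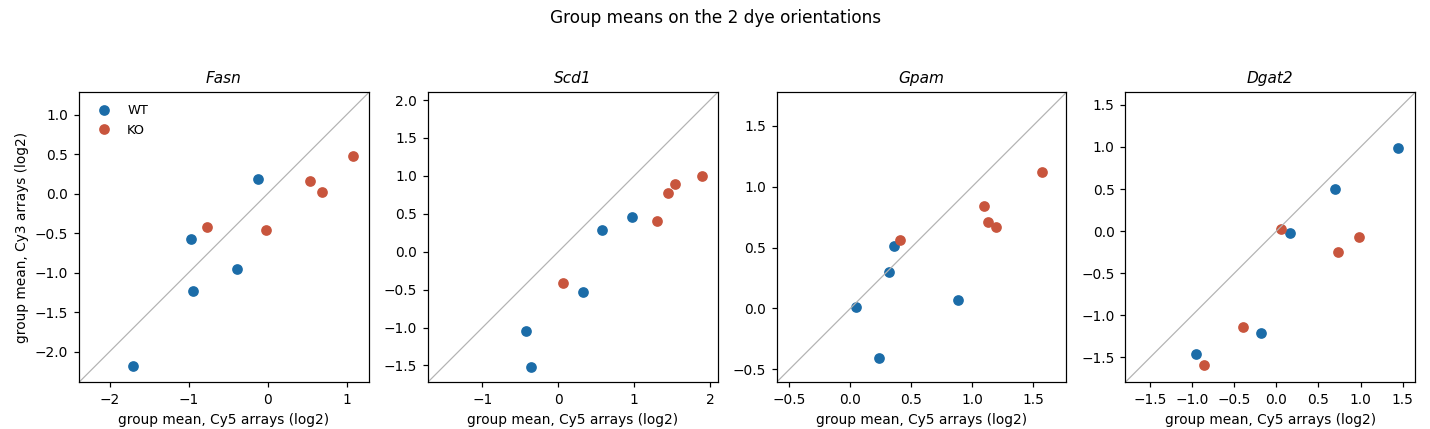
Group means of Fasn, Scd1, Gpam and Dgat2 on Cy5 arrays (x axis, log2 ratio) against Cy3 arrays (y axis, log2 ratio), 1 point per genotype and time, WT in blue and KO in red, with the line of equal values in grey. Cy5 and Cy3 means rise together in all 4 panels, with the highest correlation for Scd1 (r = 0.96). All points of Scd1 and Dgat2 lie below the line of equal values, as for Scd1 in WT at 24 h (-0.36 on Cy5, -1.52 on Cy3).

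Array set B stood apart from set C for several members within single groups. Fasn was 1.25 to 1.72 higher in set B than in set C in each of the 3 groups that hold both. In those groups Scd1 was 0.45 to 1.06 lower in set B, Me1 0.53 to 1.27 lower, and Acaca probes 1, 2 and 3 were 0.78 to 1.07, 0.98 to 1.81 and 0.51 to 1.67 lower. For Srebf1 the difference was -0.08 to 0.00. Counts without sets A and B are therefore given for comparisons with 0 h or 24 h. The share of all probes that passed also changed with the setting. In WT at 2 h against 0 h it was 0.446%, and 11.4% without sets A and B. A count given without that share is no result about the members alone.

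Srebf1 codes for the transcription factor that switches on most genes of the pathway. Its level moved little, with group means from -0.19 ± 0.05 in untreated WT to 0.25 ± 0.15 in KO at 0.5 h. Untreated WT replicates were -0.16, -0.17 and -0.25 and untreated KO replicates 0.01, 0.15 and 0.08. These did not overlap, but the difference of 0.27 ± 0.10 did not pass (adjusted p = 0.784). Srebf1 passed in none of the 24 comparisons. Its lowest adjusted p was 0.0521, for WT at 12 h against 0 h (0.33 ± 0.10). The probe does not tell the products of this gene apart.

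Thrsp, also called Spot 14, had group means from -0.17 in untreated KO (1 replicate) to 0.52 ± 0.10 in WT at 12 h. In KO at 0.5 h no replicate had a value on both dyes. The Cy3 arrays alone read 1.12, 1.17 and 0.69 there, the highest group mean on that dye (0.99). Untreated KO replicate 2 read 0.96 on its Cy3 array alone, so the low place of untreated KO rests on replicate 3. At 12 h the WT replicates were 0.51, 0.63 and 0.43 and the KO replicates -0.06, 0.44 and 0.22, which overlap by 1 KO replicate.

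Acly, which makes the acetyl-CoA used by the pathway, passed in 1 comparison. In KO its replicates were 0.45, 0.32 and 0.45 untreated and -0.26, -0.10 and -0.39 at 24 h. All 3 values at 24 h lay below all untreated values, and Acly fell by 0.66 ± 0.18 (adjusted p = 0.0428). The call was lost without any 1 of KO 0 h replicates 1, 2 or 3 or KO 24 h replicates 1 or 3 (-0.70 to -0.59). In WT the values at 24 h were 0.55, 0.49 and -0.41, the last one in array set B, and the difference of -0.16 ± 0.18 did not pass.

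Me1, malic enzyme, is a source of NADPH for Fasn. In WT at 0.5 h its replicates were 0.71, 0.90 and 0.96, and at 2 h they were -0.01, -0.06 and 0.10. All values at 2 h were lower, and Me1 fell by 0.85 ± 0.24 (adjusted p = 0.0204). The call was lost without WT 0.5 h replicate 2 or 3 or WT 2 h replicate 1 or 2 (-0.84 to -0.80). In KO the replicates went from 0.55, 0.57 and 0.86 to 0.26, 0.12 and 0.27, without overlap, but the difference of -0.44 ± 0.24 did not pass (adjusted p = 0.400).

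Acaca, the carboxylase that commits acetyl-CoA to fatty acid synthesis, had 3 probes that did not read alike. Between 0.5 and 2 h in WT, probe 1 stayed at 0.07 ± 0.19 and 0.03 ± 0.13. Probe 2 went from 0.89, 0.28 and 0.48 to -0.81, -1.24 and -0.98 and probe 3 from 0.49, 0.16 and 0.39 to -0.76, -0.98 and -0.31. Probe 2 fell by 1.56 ± 0.34 (adjusted p = 0.00443), while probe 3 differed by -1.03 ± 0.37 (adjusted p = 0.0630) and did not pass. On Cy5 arrays alone probe 2 no longer passed (adjusted p = 0.0936 in limma), and on Cy3 arrays alone its difference was -2.13. At 24 h against 0 h in WT, probe 1 fell by 0.97 ± 0.26 (adjusted p = 0.0187), from 0.74, 0.28 and -0.26 to -0.13, -0.80 and -1.21. These replicates overlap, and without array sets A and B the difference was -0.65 and did not pass. The call of probe 1 was also lost without WT 0 h replicate 1 or 2 or WT 24 h replicate 2 or 3. Between the genotypes no Acaca probe passed at any time, with differences of -0.16 to 0.65. Averaged over the 5 times, probe 1 was 0.35 ± 0.12 higher in KO, with an adjusted p of 0.0529.

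Fasn, the enzyme that builds palmitate, had the widest range of group means of the members, 2.73 on the log2 scale. In WT the replicates were -1.20, -1.29 and 0.48 untreated, -1.18, -1.17 and -0.91 at 0.5 h, and 0.15, -0.07 and 0.01 at 2 h. At 12 h they were -1.76, -1.97 and -2.11 and at 24 h -1.62, -0.80 and 0.10. In KO they were 0.21, 0.23 and 0.62 untreated, 0.25, 0.44 and 0.35 at 0.5 h, 0.86, 0.87 and 0.62 at 2 h, -0.10, -0.12 and -0.49 at 12 h, and -1.30, -0.72 and 0.24 at 24 h. At 0.5, 2 and 12 h every KO replicate lay above every WT replicate. At 0 and 24 h the groups overlapped, and in both genotypes at 24 h and in WT at 0 h the highest value was a replicate in array set B. In the order of the 10 means, from WT at 12 h to KO at 2 h, 6 of 9 neighbouring pairs of groups overlapped. Those that did not were WT at 12 h and the next group, WT at 0.5 h, and WT at 2 h with its neighbours on either side, KO at 12 h and KO at 0.5 h.

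Scd1, the desaturase that makes monounsaturated fatty acids, was read at 0.79, 0.68 and -0.19 in untreated WT, 0.79, 0.42 and 0.94 at 0.5 h, and -0.92, -0.72 and -0.57 at 2 h. At 12 h WT was at -0.02, -0.20 and -0.11, and at 24 h at -0.63, -0.50 and -1.69. In KO it was at 1.51, 1.55 and 0.28 untreated, 1.27, 1.42 and 1.66 at 0.5 h, 0.15, -0.60 and -0.09 at 2 h, 1.25, 1.10 and 1.30 at 12 h, and 0.97, 1.04 and 0.55 at 24 h. KO replicates were above all WT replicates at 0.5, 12 and 24 h, and the groups overlapped at 0 and 2 h. Each of the 9 neighbouring pairs in the order of the means overlapped.

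Gpam, which starts glycerolipid synthesis, was higher in every KO replicate than in every WT replicate at all 5 times. Untreated, WT was at 0.40, 0.24 and 0.66 and KO at 1.05, 0.80 and 1.07. At 0.5 h WT was at 0.34, 0.36 and 0.22 and KO at 0.74, 1.08 and 0.94, and at 2 h WT at 0.11, -0.08 and 0.06 and KO at 0.49, 0.41 and 0.55. At 12 h WT was at 0.41, 0.46 and 0.56 and KO at 1.28, 1.38 and 1.38, and at 24 h WT at 0.17, -0.00 and -0.42 and KO at 1.14, 0.96 and 0.69. The replicates of Gpam lay close together, with a median SD within groups of 0.13.

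Dgat2, which completes triglyceride, had group means in WT and KO of -0.72 and -0.76 at 12 h and of -1.21 and -1.23 at 24 h. In WT it was at 1.11, 1.23 and -0.53 untreated, 1.06, 1.31 and 1.29 at 0.5 h, 0.11, -0.11 and 0.21 at 2 h, -0.77 and -0.67 at 12 h, and -1.03, -1.01 and -1.57 at 24 h. In KO it was at 0.21 and 0.42 untreated, 0.29, 0.47 and 0.61 at 0.5 h, 0.12, 0.24 and -0.24 at 2 h, -0.64, -1.01 and -0.64 at 12 h, and -1.37, -1.03 and -1.28 at 24 h. In both genotypes all values at 12 and 24 h lay below all values at 0, 0.5 and 2 h.

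**Figure D2:**
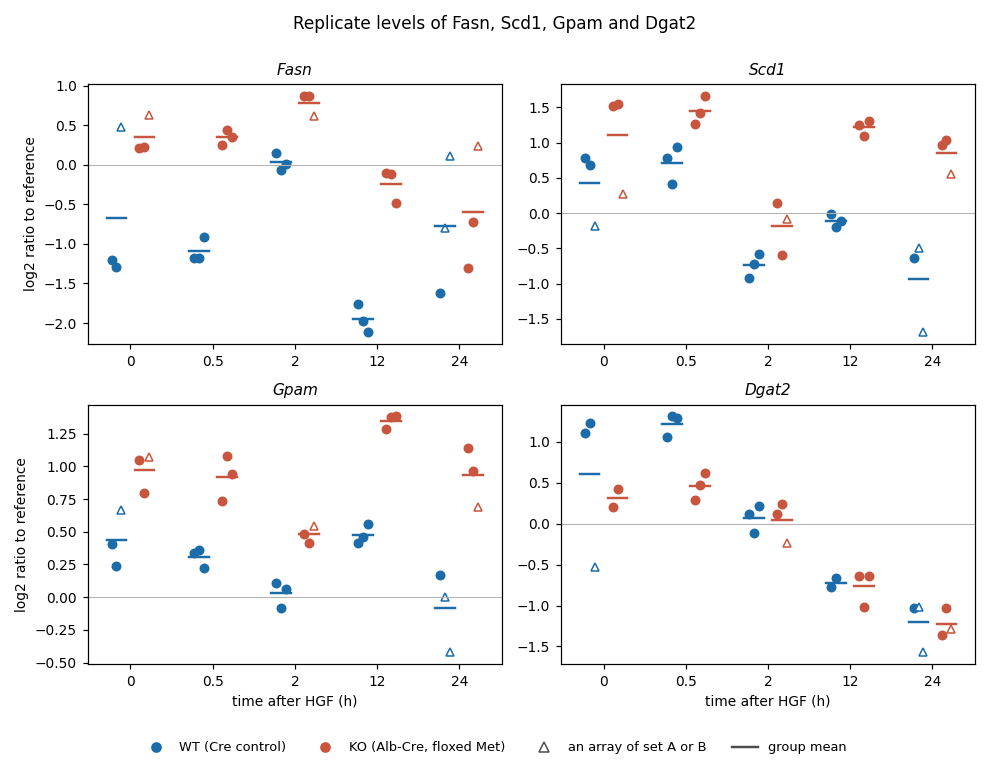
Log2 ratio to the WT reference pool (y axis) of Fasn, Scd1, Gpam and Dgat2 by hours after HGF (x axis), 1 symbol per replicate, WT in blue and KO in red, with a line at each group mean and open triangles for replicates with an array of set A or B. KO lies above WT for Gpam at all 5 times, and Dgat2 lies below 0 in both genotypes at 12 and 24 h.

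Elovl6, the elongase of palmitate, did not pass between the genotypes. Its group means were 0.05 ± 0.13 to 0.84 ± 0.24 in WT and 0.25 ± 0.21 to 0.89 ± 0.52 in KO up to 12 h. In KO at 24 h the replicates were 0.35, -2.68 and 0.15. Replicate 2 was at -0.51 on its Cy5 array and at -4.86 on its Cy3 array.

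**Figure D3:**
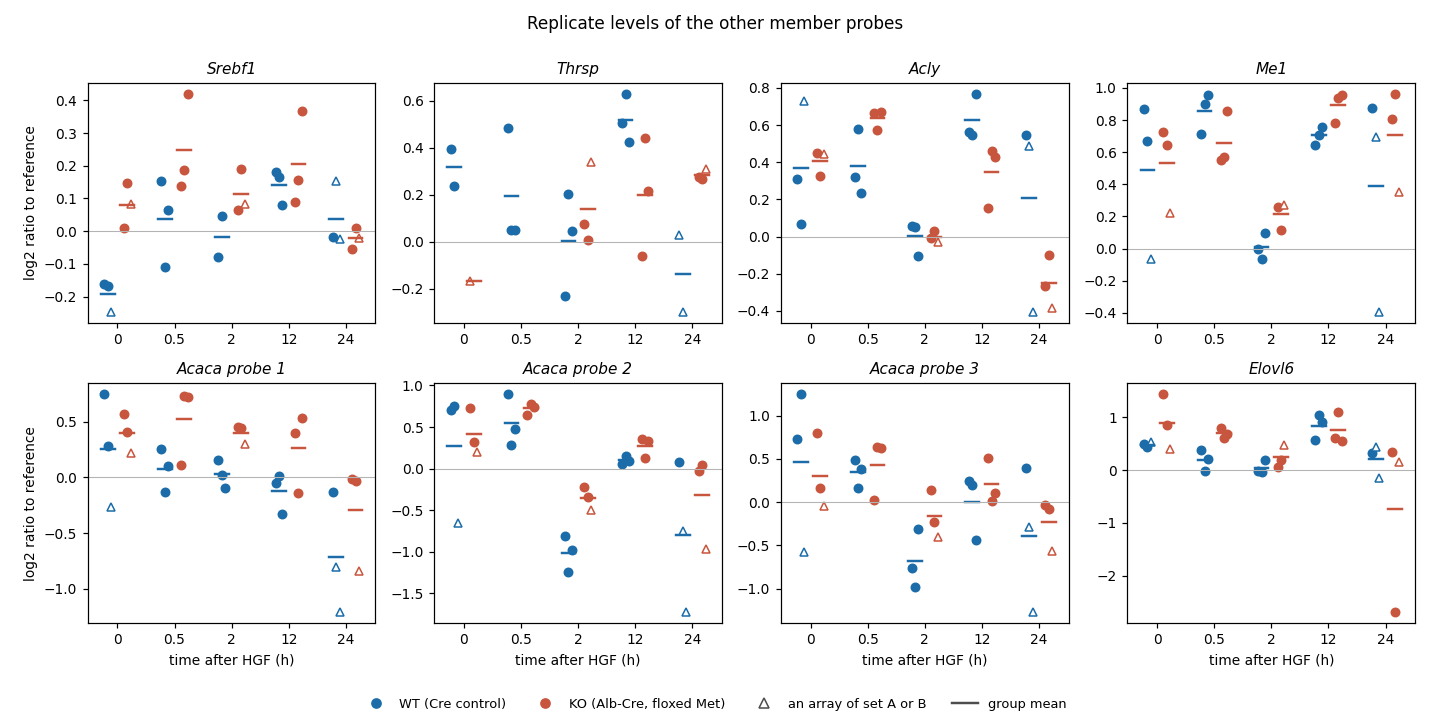
Log2 ratio to the WT reference pool (y axis) of the other 8 member probes by hours after HGF (x axis), drawn as in the plot of Fasn, Scd1, Gpam and Dgat2, with its own y axis in each panel. The group means of Srebf1 stay between -0.19 and 0.25, and 1 replicate of Elovl6 in KO at 24 h lies at -2.68.

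KO and WT were compared at each time to ask whether the level of these genes depends on genotype. Fasn, Scd1 and Gpam were the members that passed, each higher in KO. Averaged over the 5 times, Fasn was 2.03-fold higher in KO (1.02 ± 0.17, adjusted p = 1.96e-04), Scd1 2.03-fold (1.02 ± 0.14, adjusted p = 1.47e-05) and Gpam 1.62-fold (0.70 ± 0.06, adjusted p = 4.96e-08). These are 3 of 11 probes, against 10.1% of all probes in that comparison. All 3 passed in each of the 14 alternative settings run and without each replicate in turn. The other 8 probes did not pass, and the median difference over the 11 was 0.16, against 0.00 over all probes. With the sign of the array of unsettled direction turned 5 probes passed, Acaca probe 1 among the higher and Dgat2 lower in KO. Without array sets A and B 4 passed, Dgat2 in addition. Cell markers also differed in the mean. Of 14 hepatocyte markers Cps1, of the urea cycle, was higher in KO (0.49 ± 0.10) with Asgr1 (0.38 ± 0.09), and of 6 macrophage markers Mpeg1 (0.36 ± 0.10). Of 4 stellate cell markers Acta2 (0.26 ± 0.08) was higher, and of 2 red blood cell markers Alas2 (0.27 ± 0.07). The median of these 2 was -0.015, so the other, Hba-a1, lay below 0. It did not pass, but both had an unadjusted p under 0.05 in limma. Dnase1l3 (-0.48 ± 0.10) and Clec4g (-0.32 ± 0.09) of 4 endothelial markers and Cftr (-0.39 ± 0.12) of 5 bile duct markers were lower. The part of these cells in the member differences was not tested.

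In untreated cells 0 of 11 probes passed in limma, against 0.0617% of all probes, and 4 had an unadjusted p under 0.05. Those were Gpam (0.54 ± 0.14, adjusted p = 0.311), Fasn (1.02 ± 0.38, adjusted p = 0.769), Srebf1 (0.27 ± 0.10) and Scd1 (0.69 ± 0.30, adjusted p = 0.890), all with higher values in KO. Weighted replicates and the turned sign also gave 0. Without array sets A and B, with 2 and 2 replicates, 3 passed, against 0.569% of all probes. They were Fasn (1.46) and Gpam, higher in KO, and Dgat2, lower in KO.

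At 0.5 h 2 of 11 probes passed, both higher in KO, against 4.30% of all probes. Fasn was 2.70-fold higher (1.44 ± 0.38, adjusted p = 0.0312) and Gpam 1.53-fold (0.61 ± 0.14, adjusted p = 0.0145). The call of Fasn was lost without any 1 of the 6 replicates (1.39 to 1.52, all 6 above 0), and that of Gpam when WT replicate 3, KO replicate 2 or KO replicate 3 was omitted. On Cy3 arrays alone neither passed, with 1.39 for Fasn and 0.41 for Gpam, on Cy5 arrays alone Fasn did not, and with scaled arrays Gpam did not (0.38). Of 14 hepatocyte markers, Cps1 was higher in KO in the same comparison (1.18 ± 0.23, adjusted p = 0.00464), and 13 did not pass. The median difference over the 14 went the other way (-0.12), with list means of -0.12 in WT and -0.20 in KO. The part of these markers in the result was not tested. Dgat2 was at lower values in KO without overlap (-0.76 ± 0.29, adjusted p = 0.128). With weighted replicates 4 passed, Scd1 higher and Dgat2 lower in addition, against 19.8% of all probes.

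At 2 h 0 of 11 passed in limma, against 0.432% of all probes, and 1 had an unadjusted p under 0.05, Gpam (0.45 ± 0.14, adjusted p = 0.195). KO replicates all lay above WT replicates for 6 probes, as they did for 15.9% of all probes: Fasn (0.75 ± 0.38), Acaca probes 1 and 2, Gpam, Srebf1 and Me1. With weighted replicates Fasn and Gpam passed, against 4.52% of all probes. Arrays of the 2 h groups had a narrow spread over probes, with SD of 0.287 to 0.474, against 0.376 to 0.898 at 0.5 h, and its part in the result was not tested.

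At 12 h 3 of 11 passed, all higher in KO, against 2.84% of all probes. Fasn was 3.27-fold higher (1.71 ± 0.38, adjusted p = 0.0108), Scd1 2.50-fold (1.32 ± 0.30, adjusted p = 0.0151) and Gpam 1.83-fold (0.87 ± 0.14, adjusted p = 6.61e-04). All arrays of this comparison lie in set C. The call of Scd1 was lost when WT replicate 2, KO replicate 1 or KO replicate 3 was omitted (1.28 to 1.31) and on either dye alone, that of Fasn with scaled arrays (1.11) and on Cy3 arrays alone, and that of Gpam on Cy5 arrays alone (0.69, adjusted p = 0.0565). In the same comparison 0 of 14 hepatocyte markers passed in limma, with 3 at an unadjusted p under 0.05.

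At 24 h 2 of 11 passed, both higher in KO, against 4.77% of all probes. Scd1 was 3.47-fold higher (1.79 ± 0.30, adjusted p = 5.01e-04) and Gpam 2.02-fold (1.01 ± 0.14, adjusted p = 5.63e-05). Both also passed with weighted replicates (adjusted p = 0.0334 and 0.00499), against 1.11% of all probes. Neither passed when only these 2 groups were fitted. Without array sets A and B, which leaves 1 WT and 2 KO replicates, the differences were 1.63 and 0.88. Fasn, higher in KO at 0.5 and 12 h, was at 0.17 ± 0.38 (adjusted p = 0.854). Of the hepatocyte markers, 2 of 14 were higher in KO at this time, with Asgr1, the asialoglycoprotein receptor, at 0.80 ± 0.20 and Trf, transferrin, at 0.58 ± 0.15, and their part in the result was not tested.

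**Figure D4:**
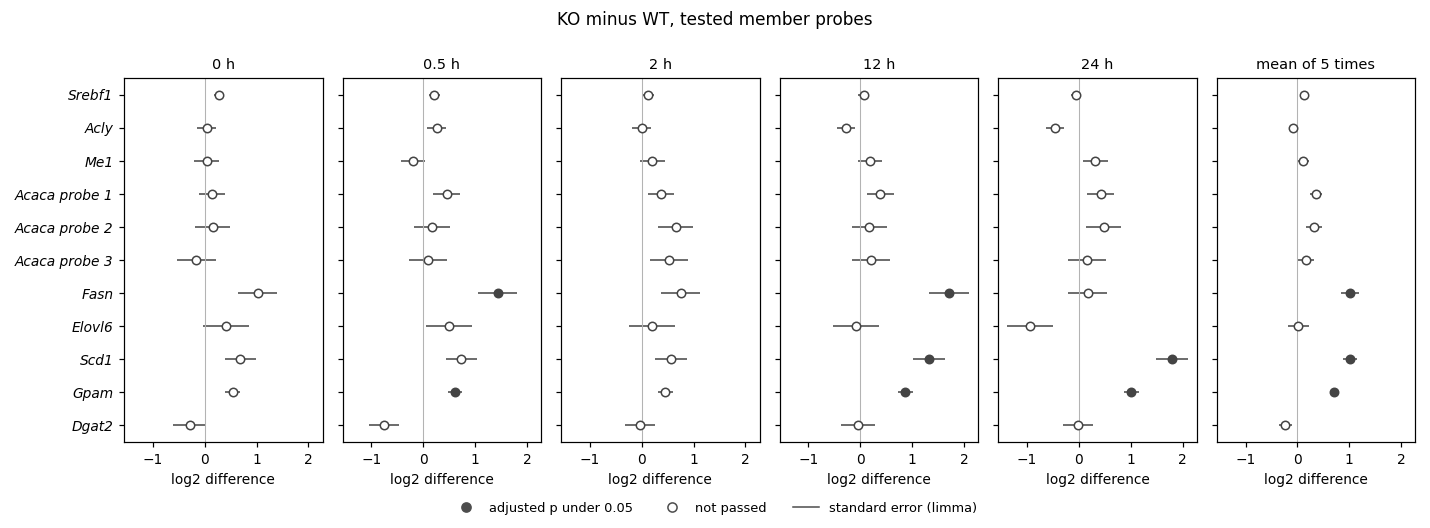
Log2 difference between KO and WT (x axis, right of 0 is higher in KO) of the 11 tested member probes (rows) at each of the 5 times and averaged over them (panels), with the limma standard error as bars and filled circles at an adjusted p under 0.05. Fasn, Scd1 and Gpam are filled in the panel of the mean, at 1.02, 1.02 and 0.70.

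The pathway was also read through 76 further genes, of which 51 were tested. Averaged over time 6 were higher and 1 was lower in KO, with a median difference of 0.06. These 7 of 51 stand beside 10.1% of all probes, so the count is near that of the whole array. Pklr, liver pyruvate kinase, was at 0.80 ± 0.15 (adjusted p = 7.03e-04), Idh1, a cytosolic source of NADPH, at 0.47 ± 0.08 and Mogat1, a monoacylglycerol acyltransferase, at 0.46 ± 0.12. Lpin3, a phosphatidate phosphatase, was lower at -0.22 ± 0.05. By time, Mogat1 passed at 0.5 h (0.99 ± 0.26), with 0.27 on Cy5 arrays and 1.70 on Cy3 arrays. At 24 h Insig2, which holds SREBP back in the endoplasmic reticulum, was higher (0.90 ± 0.17) with Idh1 (0.74 ± 0.18). Lpin3 was lower then (-0.41 ± 0.11). At 0, 2 and 12 h 0 of 51 passed in limma, with 5, 10 and 12 at an unadjusted p under 0.05.

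Each HGF time was compared with untreated cells of the same genotype. Dgat2 was lower at 12 h in WT and at 24 h in both genotypes. At 12 h in WT it fell by 1.32 ± 0.32 (n = 2 and 3, adjusted p = 0.0174) and at 24 h by 1.81 ± 0.29 (adjusted p = 2.14e-04). In KO it fell by 1.54 ± 0.32 at 24 h (n = 3 and 2, adjusted p = 0.00848), and at 12 h differed by -1.08 ± 0.32 (adjusted p = 0.199). Without array sets A and B these differences were -1.89, -2.20, -1.51 and -1.08. The WT call at 12 h was lost without WT 0 h replicate 1 or 2 or WT 12 h replicate 1 or 2 (-1.37 to -1.01), and the KO call at 24 h without KO 0 h replicate 1 or 2.

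At 0.5 h 0 of 11 probes passed in limma in either genotype, against 0.123% of all probes in WT and 0.00686% in KO, with 2 and 0 at an unadjusted p under 0.05. Without sets A and B the count was also 0 in both. At 2 h 0 passed in WT, against 0.446%, and 0 in KO, against 0.0343%, with 4 at an unadjusted p under 0.05 in each. Scd1 was at -1.16 ± 0.30 in WT (adjusted p = 0.0870) and -1.29 ± 0.30 in KO (adjusted p = 0.307). Without sets A and B 6 probes passed in WT, against 11.4% of all probes, with Fasn higher (1.27) and Scd1 (-1.47), Acaca probes 2 and 3, Me1 and Dgat2 lower. In KO 5 then passed, against 3.71%, with Fasn higher (0.64) and Scd1 (-1.76), Acaca probe 2, Gpam and Me1 lower. With the sign of the unsettled array turned, 4 passed in WT. Array set and time cannot be told apart in WT here, since the early times lie in set D and untreated cells in sets B and C. In KO untreated cells lie in sets A and C, those of 0.5 h in set D and those of 2 h in sets A and D. Set and time therefore cannot be told apart in KO at 0.5 h, nor at 2 h without sets A and B.

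At 12 h 2 of 11 passed in WT, both lower, against 5.81% of all probes. Beside Dgat2, Fasn fell by 1.28 ± 0.38 (adjusted p = 0.0455). All 3 values at 12 h lay below all untreated values. The difference was -0.71 without WT 0 h replicate 3, the replicate in array set B. Without all replicates of sets A and B, Fasn was among 6 of 11 probes that passed, against 6.92% of all probes. The call was also lost without any 1 WT replicate of 12 h, and 1 probe, Dgat2, passed with the sign turned. In KO 0 of 11 passed in limma, against 0.130% of all probes, with 2 at an unadjusted p under 0.05. Fasn was at -0.59 ± 0.38 there (adjusted p = 0.777). In KO 1 passed without sets A and B, Dgat2.

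At 24 h 4 of 11 passed in WT, all lower, against 8.72% of all probes. They were Dgat2, Scd1 (-1.37 ± 0.30, adjusted p = 0.00478), Acaca probe 1 and Gpam (-0.52 ± 0.14, adjusted p = 0.0199). With weighted replicates 1 passed, Dgat2, against 2.15% of all probes, and with the sign turned 5. Without sets A and B, where 1 WT replicate of 24 h is left and is assumed to vary like the others, Scd1 (-1.36) and Dgat2 passed, against 9.07%, and Gpam was at -0.15. The Gpam call was also lost without WT 0 h replicate 3 or WT 24 h replicate 3. Fasn was at -0.10 ± 0.38 in this comparison. In KO 3 of 11 passed, all lower, against 3.48% of all probes. They were Dgat2, Acly and Elovl6 (-1.62 ± 0.44, adjusted p = 0.0406). The value of Elovl6 rests on KO replicate 2, whose Cy3 array stands apart, and was -0.65 without it, which did not pass. Without sets A and B 4 passed, Fasn (-1.23) in addition, against 8.48%. Hepatocyte markers fell at the same time, 7 of 14 in WT and 8 of 14 in KO, none rising. Asgr1 fell by 2.28 ± 0.20 in WT and by 1.31 ± 0.20 in KO, and Ttr, transthyretin, by 1.32 ± 0.28 and 1.19 ± 0.28. The part of this in the member values was not tested.

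**Figure D5:**
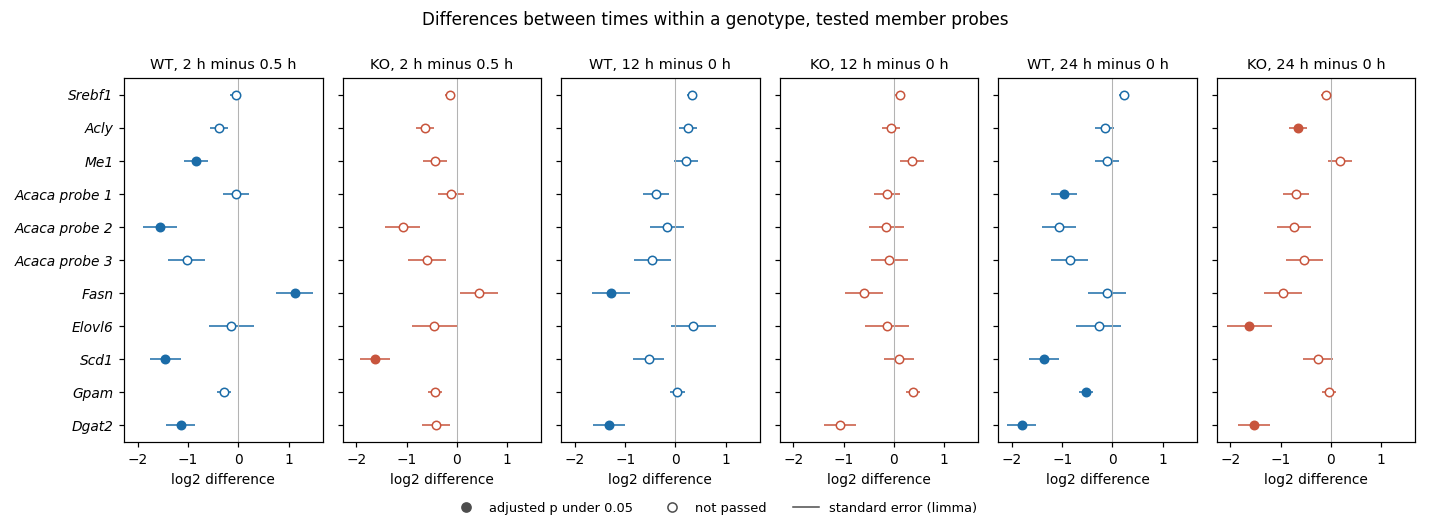
Log2 difference between times (x axis, left of 0 is lower at the later time) of the 11 tested member probes (rows) in WT (blue) and KO (red), with the limma standard error as bars and filled circles at an adjusted p under 0.05. Dgat2 is filled at 24 h against 0 h in both genotypes (-1.81 and -1.54), and Scd1 at 2 h against 0.5 h in both (-1.45 and -1.63).

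The step from 0.5 to 2 h compares groups whose arrays lie in set D, but for KO 2 h replicate 3. In WT 5 of 11 probes passed, against 14.5% of all probes. Scd1 fell by 1.45 ± 0.30 (adjusted p = 0.00354), Acaca probe 2 by 1.56 ± 0.34, Dgat2 by 1.15 ± 0.29 (adjusted p = 0.0104) and Me1 by 0.85 ± 0.24. Fasn alone rose, by 1.12 ± 0.38 (adjusted p = 0.0475). The calls of Scd1 and Dgat2 held in every setting run and without each replicate. The call of Fasn was lost without any 1 of the 6 replicates (1.06 to 1.21), on either dye alone (0.82 and 1.41) and with the looser probe filters. Some markers of other cells fell in the same step. Dcn of 4 stellate cell markers fell by 1.20 ± 0.24, Hba-a1 of 2 red blood cell markers by 1.06 ± 0.28 and Cftr of 5 bile duct markers by 0.87 ± 0.27. These falls were mostly read on Cy3 arrays. Dcn, Hba-a1 and Cftr were at -2.47, -1.87 and -1.60 there, and at -0.01, -0.25 and -0.15 on Cy5 arrays. Cdh5 of 4 endothelial markers fell by 0.78 ± 0.19 and Fabp4 of 3 adipocyte markers by 0.55 ± 0.12. The list median was above 0 for stellate cells (0.09), lymphocytes (0.42) and adipocytes (0.31). It was below 0 for red blood cells (-0.33), bile duct cells (-0.35), endothelial cells (-0.27) and macrophages (-0.34). The part of these cells in the result was not tested. With weighted replicates 8 passed, against 36.5% of all probes. In KO 1 passed, against 0.871%: Scd1 fell by 1.63 ± 0.30 (adjusted p = 0.0146), a call lost without KO 0.5 h replicate 3 or KO 2 h replicate 2. Fasn was at 0.44 ± 0.38 and Dgat2 at -0.42 ± 0.29 in KO. With weighted replicates 4 passed in KO, all lower, against 10.6%. In WT at 2 h the group means of Fasn, Acly, Gpam, Me1, Elovl6 and Dgat2 all lay between 0.00 and 0.07, close to the reference. Acaca probe 1 was at 0.03 and Srebf1 at -0.02 (n = 2) in that group. Scd1 lay lower, at -0.74, as did Acaca probes 2 and 3, at -1.01 and -0.68.

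Between 12 and 24 h 1 of 11 passed in WT, against 2.05% of all probes. Gpam fell by 0.56 ± 0.14 (adjusted p = 0.0372), but was at -0.31 without sets A and B and did not pass there, nor with weighted replicates, with the replicate number as a block (adjusted p up to 0.394 over the settings), or without any 1 of WT 12 h replicates 1, 2 and 3 and WT 24 h replicates 2 and 3. Fasn was at 1.18 ± 0.38 (adjusted p = 0.0955), and at 0.33 without sets A and B. In KO 0 of 11 passed in limma, against 0.528%, with 5 at an unadjusted p under 0.05, and all 11 differences were below 0. There, 3 passed without sets A and B, namely Fasn, Acly and Elovl6.

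The genotype difference of the HGF response was tested directly. In limma 0 of 11 probes passed at 0.5, 2, 12 or 24 h against 0 h, where 0.00686%, 0.0274%, 0.0754% and 0.727% of all probes did. Likewise 0 passed for the steps from 0.5 to 2 h (0.343% of all probes) and from 12 to 24 h (0.0343%). At an unadjusted p under 0.05 there were 4 at 24 h, 1 for the step from 12 to 24 h and 0 in the others. Without sets A and B the count was 0 at 0.5, 2 and 12 h and for the step from 12 to 24 h, and 1 at 24 h (Acly) and from 0.5 to 2 h (Dgat2). The smallest adjusted p at 24 h was 0.293, for Scd1, whose response was 1.10 ± 0.43 higher in KO. For the step from 12 to 24 h Fasn differed by -1.54 ± 0.53 (adjusted p = 0.395). A change that passed in 1 genotype and not in the other, such as that of Fasn at 12 h, was therefore not shown to differ between them.

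The 51 other pathway genes were tested over the same times. In WT at 12 h 2 were higher and 5 lower than untreated, against 5.81% of all probes. Fabp1, the liver fatty acid binding protein, fell by 3.29 ± 0.90 (adjusted p = 0.0312). Elovl2, which elongates polyunsaturated fatty acids, fell by 0.87 ± 0.18 and Insig2 by 0.61 ± 0.17. Fads3 rose by 1.02 ± 0.28 and Scd3 by 0.59 ± 0.17. The difference of Insig2 was 0.02 on Cy5 arrays and -1.24 on Cy3 arrays. That of Scd3 was 1.06 on Cy5 and 0.12 on Cy3 arrays, and it did not pass in limma with weighted replicates (adjusted p = 0.147). At 24 h in WT 6 of 51 were lower, against 8.72% of all probes, with Fabp1 at -3.21 ± 0.90, Insig2 at -0.94 ± 0.17 and Elovl2 at -0.79 ± 0.18. From 0.5 to 2 h in WT 10 fell and 1 rose, against 14.5% of all probes. Acsl5, which activates fatty acids, fell by 0.86 ± 0.20 (adjusted p = 0.00697), Pgd, of the pentose phosphate pathway, by 0.71 ± 0.24 and Hacd3, of fatty acid elongation, by 0.69 ± 0.19. Lpin1, a phosphatidate phosphatase, rose by 1.08 ± 0.31. From 12 to 24 h in WT Gpd1, which makes glycerol-3-phosphate, fell by 1.00 ± 0.26 (adjusted p = 0.0477). In KO 0 of 51 passed in limma at 0.5, 2, 12 or 24 h against 0 h, with 0, 4, 5 and 9 at an unadjusted p under 0.05, or in the steps from 0.5 to 2 h and 12 to 24 h, with 15 and 8.

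Among themselves the members did not share 1 course over the 10 groups. As a description over group means that share the reference and the arrays, Scd1 and Gpam ran most alike (r = 0.87). They were followed by Acly and Elovl6 (r = 0.87) and by Scd1 and Me1 (r = 0.71). The Elovl6 means include KO 24 h replicate 2, read at -4.86 on its Cy3 array. That reading also enters the mean of the tested members used below, and its part in these correlations was not tested. Fasn and Me1 ran opposite (r = -0.45), and Fasn with Scd1 gave 0.21. Of 10065 other genes, those whose 10 group means were most like the mean of the tested members were 4930596I21Rik (r = 0.97), Itga7 (0.97), Mettl26 (0.97), Slc38a3 (0.95) and G6pd2 (0.94). On Cy5 and on Cy3 arrays alone the likeness was 0.66 and 0.58 for 4930596I21Rik and 0.87 and 0.77 for Mettl26. For Itga7 it was 0.96 and 0.88, for Slc38a3 0.96 and 0.94, and for G6pd2 0.90 and 0.95. Most like Fasn were Cyp4a14 (0.97) and Cyp4a10 (0.95), P450 enzymes that hydroxylate fatty acids, then 9130008F23Rik (0.94), 2410017I17Rik (0.94) and 4930414N06Rik (0.93). For 9130008F23Rik and 4930414N06Rik the likeness to Fasn was 0.10 and 0.27 on Cy3 arrays alone, and for Cyp4a10 it was 0.89.

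Markers of adipocytes, the other main site of triglyceride synthesis, were read by 3 of 6 listed genes. Their mean level was -0.06 to 0.27 over the 10 groups. Lep, leptin, was higher in KO averaged over time (0.27 ± 0.08), rose in WT at 12 h (0.82 ± 0.17) and rose in KO from 0.5 to 2 h (0.99 ± 0.20), while Fabp4 fell in WT over that step, and the mean over the list was 0.25 in WT and 0.27 in KO at 12 h. Of 6 macrophage markers, Mpeg1 was higher in KO at 24 h (1.23 ± 0.23) beside Scd1 and Gpam, and 5 did not pass. The mean over that list was then -0.50 in WT and -0.27 in KO. Of 4 endothelial markers, Dnase1l3 was lower in KO at 12 h (-1.32 ± 0.23) and at 24 h (-0.89 ± 0.23), where the list means were 0.09 and -0.12 in WT and -0.45 and -0.45 in KO. At 0.5 h, beside Fasn and Gpam, 1 of 4 stellate cell markers (Dcn, -1.13) and 1 of 5 bile duct markers (Cftr, -1.17) were lower in KO. So was 1 of 2 red blood cell markers (Hba-a1, -1.06), and 1 of 3 lymphocyte markers (Nkg7, 1.20) was higher. Dcn, Cftr and Hba-a1 were at -1.88, -2.00 and -1.89 on Cy3 arrays, and at -0.39, -0.34 and -0.22 on Cy5 arrays. The stellate list mean went the other way from Dcn, at -0.21 in WT and -0.10 in KO. List means in WT and KO were 0.17 and -0.22 for bile duct cells, 0.40 and 0.025 for red blood cells, and -0.44 and 0.07 for lymphocytes. The part of these cells in the member values was not tested.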

How the data were processed

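The authors deposited log2 ratios of 60 two-colour arrays, 2 with exchanged dyes for each of 30 replicates. The log base was inferred from the values, and the numerator and normalization are not given in the sources used here. The median of each array was subtracted, and both orientations were averaged. Probes with values in at least 2 replicates of each group (14580 of 21997) were fitted in limma 3.58.1 (R 4.3.3) with 1 mean per group, and p-values were adjusted by the Benjamini-Hochberg method. The code was tested on simulated data. Symbols came from the platform annotation, updated where possible, and promoters from RefSeq GRCm38.p6. Members and gene lists were chosen with earlier results of these data known. All member probes were named, and of other genes on a list the 3 largest called differences in each direction, with the 5 genes most like the members' mean profile and most like Fasn. Alternatives changed scaling, filters, dyes, weights, array sets and replicates. The labels do not say that a replicate number is 1 mouse at all times, so numbers were not used as pairs. After removal of group means, 10 of 60 same-number pairs correlated above 0.1 (median r = -0.02, highest 0.67). Still, 18 of 30 replicates ran most like a replicate of their own number in another group of the genotype, so pairing is not settled. The labels give 50 ng/ml in 1 field and 50 nM in another, and titles set the times.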

Additional observations from a re-analysis of the deposited data

How the results depend on the processing

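The share of all probes that passed moved with the settings too. Between KO and WT at 0 h it was 0.0617%, and 0.569% without array sets A and B. At 0.5 h it was 4.30%, and 19.8% with weights. The counts below stand without that share, so they describe the settings and are no result about the members alone. Counts of member probes that passed, out of 11, moved by over 1.5 times as follows. Between KO and WT at 0 h the count was 1 with array set as a term, 3 without array sets A and B, and 1 without WT 0 h replicate 3 and KO 24 h replicate 2, a choice made after seeing the data. At 0.5 h it was 1 on Cy3 arrays, on Cy5 arrays or with scaled arrays, 4 with array set as a term, with weights or without sets A and B, and 5 with only the groups compared. At 2 h it was 2 with the set term, scaling, weights or without sets A and B, and 3 with only the groups compared. At 12 h it was 1 on either dye alone, at 24 h 0 with only the groups compared, and for the mean 6 with the set term and 5 with the sign turned.

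In WT, 2 h against 0 h gave 1 on Cy3 arrays, 3 with scaling or single arrays, 4 with the sign turned, 5 without the 2 doubted replicates and 6 without sets A and B. For 12 h against 0 h it was 0 with scaling or only the groups compared, 5 with the set term, 6 without sets A and B, and 1 with 1 orientation, no or a stricter filter, Cy3 arrays, the sign turned or without the doubted replicates. For 24 h against 0 h it was 0 with only the groups compared, 1 with weights, and 2 on Cy5 arrays or without sets A and B. From 0.5 to 2 h it was 3 on Cy5 arrays and 8 with weights or without sets A and B. From 12 to 24 h it was 4 with single arrays, 2 without the doubted replicates, and 0 with the replicate block, either dye, the set term, only the groups compared, scaling, weights or without sets A and B.

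In KO, 2 h against 0 h gave 1 with scaling, single arrays or weights and 5 without sets A and B. For 12 h against 0 h it was 1 with single arrays, weights, without sets A and B or without the doubted replicates. For 24 h against 0 h it was 1 with 1 orientation, no filter or Cy3 arrays, and 0 on Cy5 arrays or with only the groups compared. From 0.5 to 2 h it was 2 on Cy3 arrays, 3 on Cy5 arrays, with the set term, single arrays or without the doubted replicates, 4 with weights, 5 without sets A and B, and 6 with only the groups compared. From 12 to 24 h it was 1 with the set term or single arrays and 3 without sets A and B. The genotype difference of the response gave 1 with the set term and 1 without sets A and B for 24 h against 0 h and for the step from 0.5 to 2 h, 1 with the set term for 12 to 24 h, and 2 with only the groups compared for 0.5 to 2 h.

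Leaving out 1 replicate gave 0 to 1 between KO and WT at 0 and 0.5 h. In WT it gave 0 to 5 at 2 h, 0 to 1 at 12 h, 2 to 5 at 24 h, 3 to 4 from 0.5 to 2 h and 0 to 3 from 12 to 24 h. In KO it gave 0 to 1 at 2 h, 0 to 3 at 24 h, and 0 to 1 from 0.5 to 2 h and from 12 to 24 h, and 0 to 1 for the genotype difference at 24 h. With the replicate number as a block, although its pairing of samples is not settled, the count was 5 in WT and 2 in KO at 24 h. From 0.5 to 2 h it was 6 in WT. No called value changed sign in any setting run. The cause of these changes was not tested.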
